A study of Mus musculus with 8 samples.

Results

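A set of 7 genes near Hdc on mouse chromosome 2 was picked because their read counts differed strongly between the libraries labelled Hdc-/- and the WT libraries: Tmem87a, Jmjd7, Slc28a2, Gatm, Sqrdl, Slc27a2 and Kcnip3. They are 7 of the 23282 named entries of the deposited count table, and all 7 were among the 13005 genes tested. Bone marrow was sorted for hematopoietic stem and progenitor cells, 2000 in each sample, for RNA-seq, from mice carrying the Hdc-/- genotype on a C57BL/6 background (n = 4) and from C57BL/6 WT mice (n = 4). Hdc encodes histidine decarboxylase, which makes histamine. The sources used here give neither sex, age, sort markers nor the altered part of Hdc, and do not say whether each sample was a mouse of its own. P-values thus describe sample-to-sample spread, part of which may be technical.

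The 7 genes share a place on the chromosome rather than a function. Tmem87a encodes a membrane protein of the Golgi, Jmjd7 an enzyme that hydroxylates lysine in the DRG GTPases, and Slc28a2 a sodium-coupled importer of purine nucleosides. Gatm encodes the mitochondrial enzyme that starts creatine synthesis, Sqrdl (now Sqor) the mitochondrial enzyme that oxidises hydrogen sulfide, and Slc27a2 a fatty acid transporter that also activates very long chain fatty acids. Kcnip3 encodes a calcium-binding protein known as a partner of potassium channels. Genes close together on a chromosome are inherited together, so a mouse line carries, along with an altered gene, the alleles around it of the strain in which it was altered. Counts per gene do not show alleles. The alteration of Hdc and any allele carried with it differ between the same groups and cannot be told apart here.

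Depth was 17218697 to 19775106 assigned reads under the Hdc-/- label, against 16322738 to 18054954 in WT. Hdc itself had more reads under the Hdc-/- label than in WT. Libraries 1, 2, 3 and the unnumbered one labelled Hdc-/- had 875, 773, 821 and 740 reads. WT 1 to 4 had 275, 199, 261 and 263 reads. The altered part of Hdc is not given, so these counts do not show whether the labels are right, and this was not tested. The group therefore goes by its label, on which each direction depends. Markers of other marrow cells also differed. All 7 red cell markers were higher. Their summed level was 578 to 620 CPM (reads scaled to library depth) under the Hdc-/- label, against 159 to 177 CPM in WT. Among them, Epb4.2 itself lies near Hdc on chromosome 2 and is named again below. All 10 neutrophil markers were lower (794 to 1381 CPM, against 2590 to 4017 CPM in WT). So were 6 of 7 tested B cell markers (155 to 173 CPM, against 247 to 319 CPM). Of 4 tested basophil and mast cell markers 2 were lower (sums of 17.1 to 24.6 CPM, against 90.5 to 143 CPM). Most of that difference was Prss34, at 0.14 CPM under the Hdc-/- label, against 73.5 CPM in WT. Cpa3 (16.6 CPM, against 22.1 CPM) and Ms4a2 did not pass in edgeR. None of 7 macrophage markers passed in edgeR or limma-voom (5 at an unadjusted p under 0.05, 3 in DESeq2), with sums of 74.6 to 84.7 CPM against 47.1 to 63.0 CPM. The 10 stem and progenitor markers summed to 5703 to 5889 CPM, against 4852 to 5657 CPM, with Flt3 higher and Ly6a lower. No marker on these lists was at 0 in all libraries. The part of these cell types in the differences below was not tested, and in bulk samples fewer cells of a type and less RNA per cell cannot be told apart.

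Of the 7 genes, 2 had higher and 5 had lower levels in the libraries labelled Hdc-/-, and in none did the groups overlap. Over all genes tested the groups did not overlap in 12.5% (5.64% higher and 6.88% lower), and 4.76% passed edgeR's quasi-likelihood test at an adjusted p under 0.05 (2.05% higher and 2.71% lower). The members were picked on this difference, so their values are given as a description, with no test. Levels are CPM after TMM scaling as mean ± SD (n = 4), and log2 fold changes, given with a standard error (SE), have WT as the denominator.

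**Figure D1:**
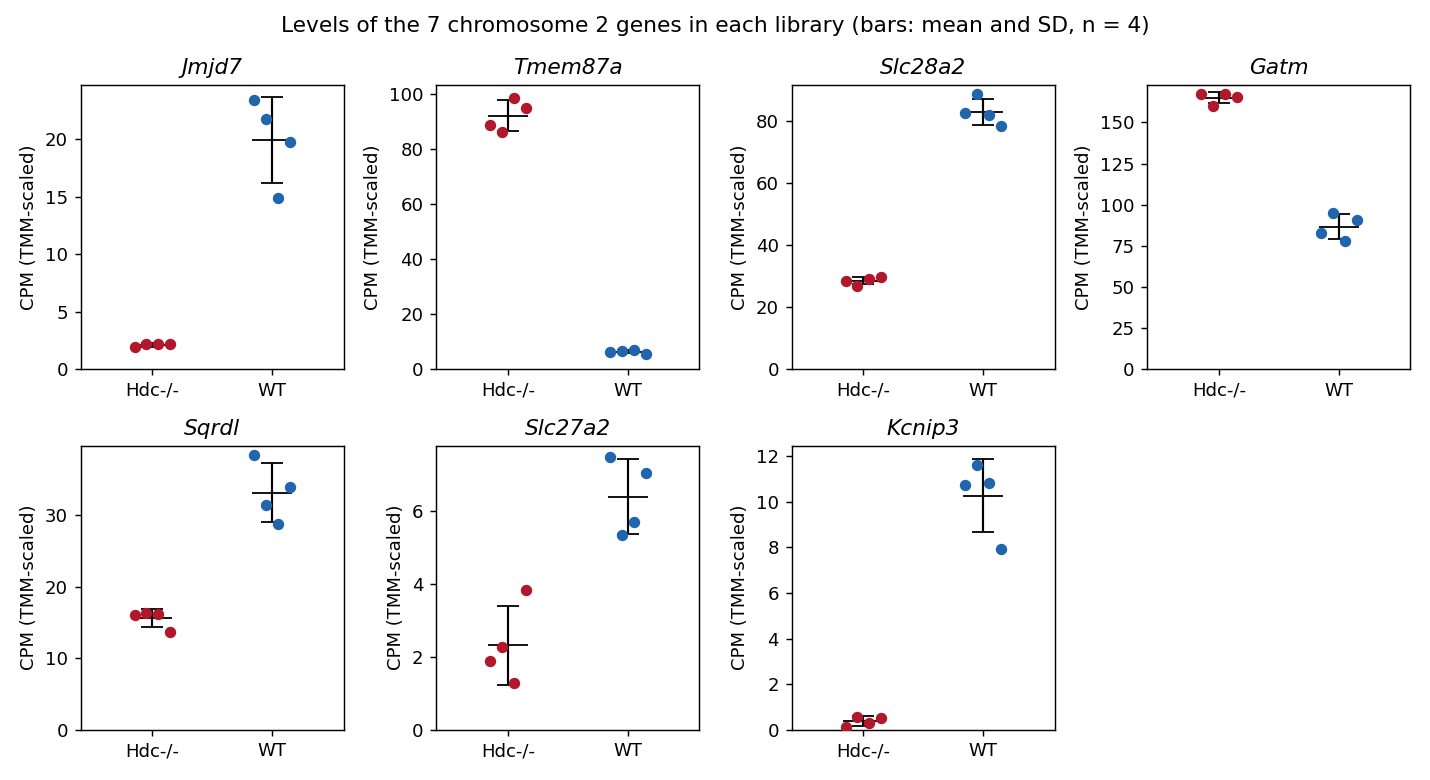
Level of each of the 7 genes (y axis, CPM after TMM scaling, linear from 0) in the 4 libraries labelled Hdc-/- (red) and the 4 WT libraries (blue); points are libraries and bars mean and SD. Tmem87a and Gatm lie higher in the libraries labelled Hdc-/-, the other 5 genes lower, with no overlap of the groups in any panel.

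Tmem87a differed more than Gatm, the other gene with the higher level. It had 1754, 1560, 1918 and 1635 reads in libraries 1, 2, 3 and the unnumbered one labelled Hdc-/-, against 107, 108, 126 and 97 reads in WT 1 to 4. The lowest library labelled Hdc-/- was far above the highest WT library. It averaged 92.1 ± 5.64 CPM under the Hdc-/- label, against 6.31 ± 0.671 CPM in WT, a log2 fold change of 3.87 (SE 0.11), or 14.6-fold. The coefficient of variation was 6.13% under the Hdc-/- label (median over all genes 8.57%) and 10.6% in WT (median 11.7%). Tmem87a lies head to head with Ganc, which encodes an alpha-glucosidase, on the opposite strand. In the GENCODE M21 annotation 2.78% of its exonic bases overlap exons of Ganc, and exons of Ganc cover all 250 bases upstream of its RefSeq start. Ganc itself had 532, 578, 598 and 523 reads in the libraries labelled Hdc-/-, against 510, 450, 613 and 558 in WT. These groups overlapped, and the difference of -0.03 did not pass (SE 0.10, edgeR adjusted p = 0.91).

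Gatm was high in every library and changed least in proportion. It had 3303, 2898, 3254 and 2852 reads in the libraries labelled Hdc-/-, against 1425, 1547, 1403 and 1618 in WT. The WT libraries all lay below every library labelled Hdc-/-. It averaged 165 ± 3.36 CPM under the Hdc-/- label, against 86.5 ± 7.70 CPM in WT, a log2 fold change of 0.93 (SE 0.07), or 1.91-fold. Its transcripts share no run of 50 bases with another gene of GENCODE M21, the lowest share among the 7.

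Kcnip3 was nearly silent in the libraries labelled Hdc-/-. It had 2, 10, 6 and 9 reads there, against 185, 189, 195 and 142 reads in WT. Every library labelled Hdc-/- was far below the lowest WT library. It averaged 0.371 ± 0.210 CPM under the Hdc-/- label, against 10.3 ± 1.6 CPM in WT, a log2 fold change of -4.79 (SE 0.33), or 27.7-fold lower. This was the largest difference in size among the tested genes within 100 places of Hdc; Hdc itself ranked 10. Of its 50-base words 99.9% occur in no other gene. RefSeq gives Kcnip3 3 start sites. The 250 bases before the outermost one, on the minus strand at chr2:127522095-127522344 of GRCm38.p6 (RefSeq), are shown because this gene differed most. Capitals mark the CCAAT box found in it, read on the other strand.
Kcnip3: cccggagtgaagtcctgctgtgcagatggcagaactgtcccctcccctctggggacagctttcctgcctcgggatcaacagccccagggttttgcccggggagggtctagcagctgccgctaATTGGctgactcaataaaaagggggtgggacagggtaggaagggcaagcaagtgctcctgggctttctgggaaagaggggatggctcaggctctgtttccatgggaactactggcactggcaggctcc

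Jmjd7 was low and even in the libraries labelled Hdc-/-, with 37, 40, 42 and 37 reads, against 403, 355, 268 and 353 reads in WT. The groups lay far apart, and the spread was mostly within WT. It averaged 2.10 ± 0.152 CPM under the Hdc-/- label, against 19.9 ± 3.71 CPM in WT, a log2 fold change of -3.25 (SE 0.18), or 9.49-fold lower. Jmjd7 is followed on the same strand by Pla2g4b, a phospholipase A2 gene, and a read-through gene spans both. In GENCODE M21 66.7% of the exonic bases of Jmjd7 lie in that read-through gene, so how its reads were assigned is uncertain. Pla2g4b had 23, 13, 66 and 28 reads in the libraries labelled Hdc-/-, against 106, 104, 123 and 139 reads in WT. It fell by 1.97 on the log2 scale (SE 0.35, adjusted p = 0.0022 by edgeR). Counted together, the pair had 60, 53, 108 and 65 reads in the libraries labelled Hdc-/- and 509, 459, 391 and 492 in WT. Jmjd7 took 38.9% to 75.5% of these reads in the libraries labelled Hdc-/- and 68.5% to 79.2% in WT.

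Slc28a2 was lower while its neighbouring copy was higher. Slc28a2 had 560, 487, 564 and 512 reads in the libraries labelled Hdc-/-, against 1425, 1443, 1479 and 1399 in WT. It averaged 28.5 ± 1.19 CPM under the Hdc-/- label, against 82.9 ± 4.27 CPM in WT, a log2 fold change of -1.54 (SE 0.08), or 2.91-fold lower. Both groups were tight, with coefficients of variation of 4.19% under the Hdc-/- label and 5.16% in WT. The copy, listed as Gm14085 and now named Slc28a2b in RefSeq, lies 2 tested genes away. It had 181, 132, 155 and 176 reads in the libraries labelled Hdc-/-, against 23, 35, 15 and 23 in WT. Gm14085 rose by 2.63 on the log2 scale (SE 0.26, edgeR adjusted p = 7.0e-06), and its groups did not overlap.

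The 2 copies are close in sequence, so their reads can be exchanged. Their longest GENCODE transcripts were 96.1% identical over 3738 aligned bases, with an identical run of 295 bases. Of the 50-base words of Slc28a2 transcripts, 35.4% also occur in Gm14085, which leaves 64.6% that set it apart. Counted together, the copies had 741, 619, 719 and 688 reads in the libraries labelled Hdc-/-, against 1448, 1478, 1494 and 1422 in WT. The sum was still lower, at 37.1 ± 2.35 CPM under the Hdc-/- label, against 84.3 ± 4.70 CPM in WT (log2 fold change -1.18, SE 0.08). Slc28a2 made up 74.4% to 78.7% of the sum in the libraries labelled Hdc-/- and 97.6% to 99.0% in WT. In reads, the deficit of Slc28a2 was larger than the gain of Gm14085. The handling of multiply aligned reads was not stated in the labels.

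The bases before the start of each copy are shown because the copies moved in opposite directions. Both are on the plus strand of GRCm38.p6 (RefSeq): chr2:122426185-122426356 for Slc28a2, which ends where the RefSeq gene span begins, and chr2:122484691-122484940 for Gm14085. Capitals mark the letters AGATAA, known from sites of blood transcription factors, and CCAAT boxes, on either strand. AGATAA is in the stretch of Slc28a2 (172 bases) and not in that of Gm14085 (250 bases). Over the full 250 bases before each start it occurs 1 time for Slc28a2 and 0 times for Gm14085. Whether it has a part in the opposite changes was not tested. Over the 32851 RefSeq promoters, 9.99% hold AGATAA and 33.8% hold CCAAT in the 250 bases before the start.
Slc28a2: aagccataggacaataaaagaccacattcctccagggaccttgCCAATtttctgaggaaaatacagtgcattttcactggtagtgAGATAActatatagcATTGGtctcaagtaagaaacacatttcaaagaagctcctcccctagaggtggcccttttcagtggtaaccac
Gm14085: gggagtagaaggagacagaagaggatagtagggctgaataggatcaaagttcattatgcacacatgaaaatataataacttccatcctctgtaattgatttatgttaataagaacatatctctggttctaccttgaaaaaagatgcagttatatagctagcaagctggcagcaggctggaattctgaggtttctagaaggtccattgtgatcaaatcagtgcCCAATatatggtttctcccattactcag

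**Figure D2:**
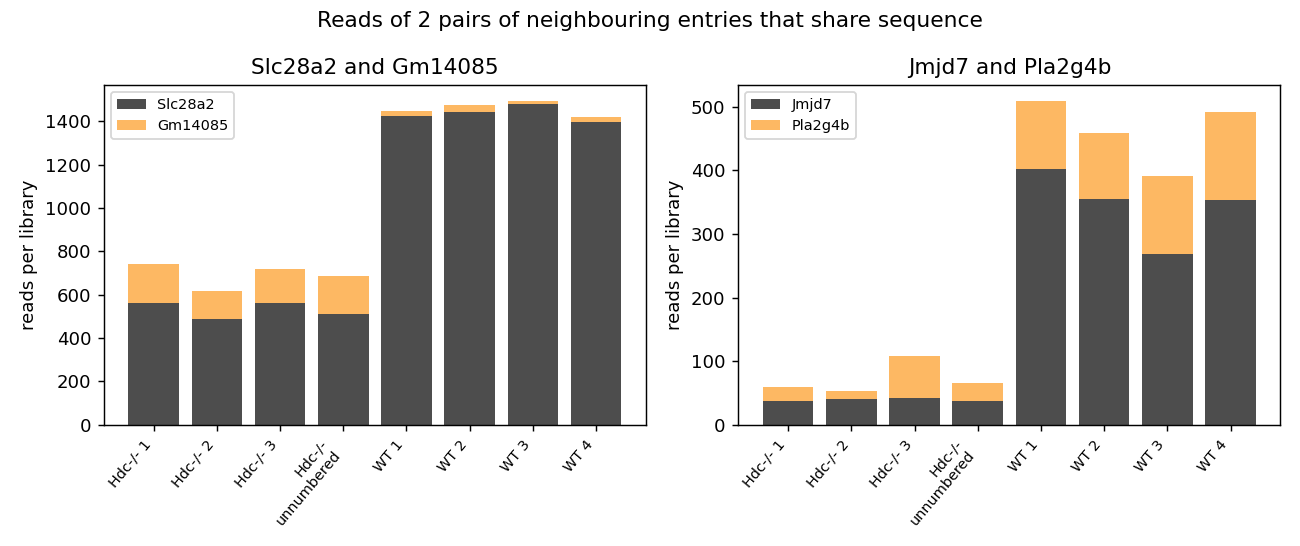
Reads per library (y axis, linear from 0) of Slc28a2 and Gm14085 (left) and of Jmjd7 and Pla2g4b (right), stacked, in the 4 libraries labelled Hdc-/- and then the 4 WT libraries. The Gm14085 part is 132 to 181 reads in the libraries labelled Hdc-/- and 15 to 35 in WT, while the stacked total is lower in the libraries labelled Hdc-/-.

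Sqrdl had 318, 296, 314 and 236 reads in the libraries labelled Hdc-/-, against 663, 511, 519 and 607 reads in WT. The unnumbered library labelled Hdc-/- was the lowest of its group also as a level, at 13.7 CPM against 16.1 to 16.4 CPM in the other 3. It averaged 15.6 ± 1.25 CPM under the Hdc-/- label, against 33.1 ± 4.14 CPM in WT, a log2 fold change of -1.09 (SE 0.12), or 2.13-fold lower. Of its 50-base words 99.9% occur in no other gene.

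Slc27a2, the gene next to Hdc, was the most uneven relative to its difference. It had 37, 41, 25 and 66 reads in the libraries labelled Hdc-/-, against 129, 87, 103 and 126 reads in WT. The unnumbered library came closest to the WT range without reaching it. It averaged 2.31 ± 1.09 CPM under the Hdc-/- label, against 6.40 ± 1.03 CPM in WT, a log2 fold change of -1.47 (SE 0.29), or 2.78-fold lower. Its coefficient of variation was 47.1% under the Hdc-/- label and 16.1% in WT. Hdc, 1 place further on, differed the other way, at 43.0 ± 0.896 CPM under the Hdc-/- label, against 14.3 ± 1.56 CPM in WT. In GENCODE M21 11.2% of the exonic bases of Slc27a2 overlap an antisense gene, and the libraries were made with a kit that does not mark strand.

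Along chromosome 2 the 7 genes were scattered, with quiet genes between them. Counted in tested genes in RefSeq order, Jmjd7 lay 65, Tmem87a 61, Slc28a2 23, Gatm 20, Sqrdl 15 and Slc27a2 1 before Hdc, and Kcnip3 17 after it. Ranked by the size of the log2 fold change among the 201 tested genes within 100 places of Hdc, Kcnip3, Tmem87a and Jmjd7 were 1, 2 and 3. Slc28a2, Slc27a2, Sqrdl and Gatm were 11, 12, 22 and 26. No numeric limit is part of the choice, and genes left out of it include the red cell membrane gene Epb4.2 (2.68, rank 4) and Spint1 (-2.57, rank 6), named here after their values were seen. Of the 193 other tested genes in that span (without Hdc), 19 rose and 15 fell (17.6% called, against 4.76% of all genes tested). Before Hdc 27 of 94 were called (28.7%) and after Hdc 7 of 99 (7.07%), a split made after the values were seen and not tested. Apart from Hdc and the 7 genes, the nearest called gene was Slc30a4, 17 places before Hdc, and Slc20a1, 33 places after it.

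**Figure D3:**
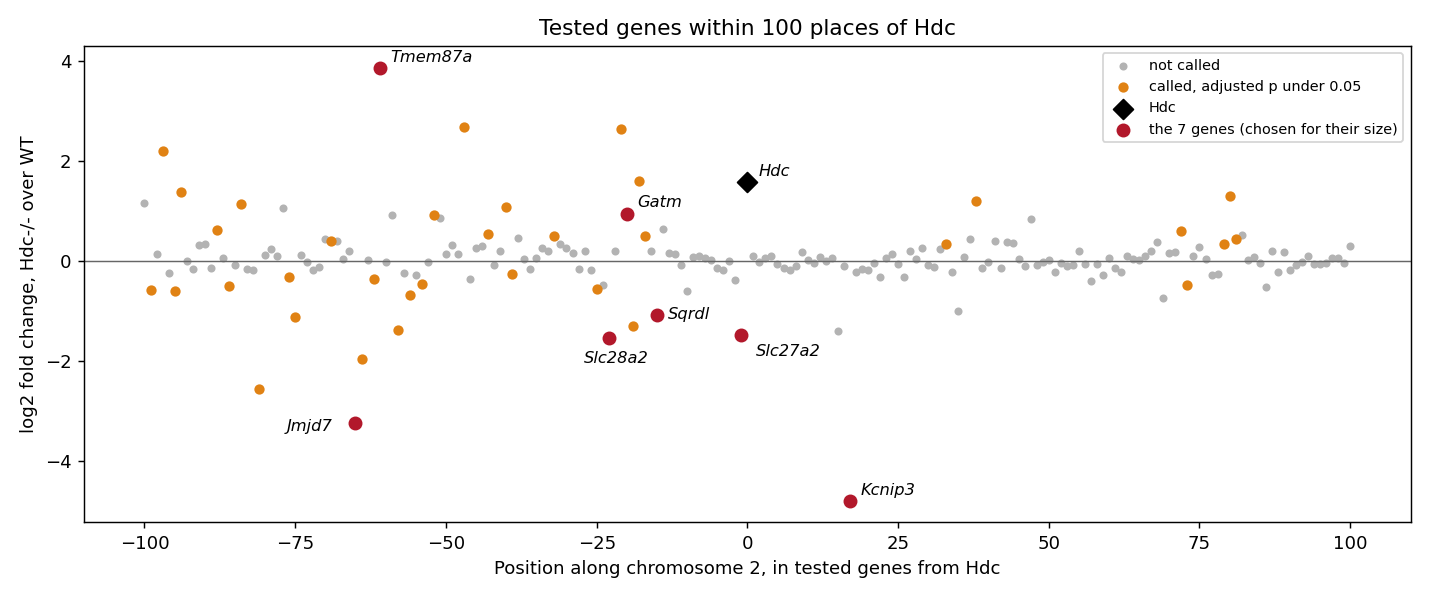
Log2 fold change (y axis, libraries labelled Hdc-/- over WT) of the 201 tested genes within 100 places of Hdc, by their order along chromosome 2 (x axis, places counted in tested genes). Red points are the 7 genes, the black diamond Hdc, orange points other called genes, grey points genes not called. Called genes are denser before Hdc (28.7%) than after it (7.07%), against 4.76% of all genes tested.

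The genes directly beside the 7 were mixed. The 2 nearest tested genes on each side of each member made 25 different genes, of which 4 rose, 4 fell and 17 did not pass (32% called, against 4.76% of all genes tested). DESeq2 called 9 of the 25. Over the 13005 genes tested, DESeq2 called 448 higher and 502 lower, more than edgeR did. The median log2 fold change of the 25 was 0.01, against 0.00 over all genes. Without Hdc the counts were 3 higher and 4 lower of 24 (29.2% called). Among genes of the span other than Hdc and the members, 28.7% were called before Hdc and 7.07% after it. The called neighbours include Pla2g4b, joined to Jmjd7 by a read-through gene, and Gm14085, the copy of Slc28a2.

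Around Kcnip3 none of 4 neighbours passed in edgeR, DESeq2 or limma-voom. Its nearest neighbour Fahd2a had 775, 641, 752 and 526 reads in the libraries labelled Hdc-/-, against 779, 546, 666 and 673 in WT (difference -0.09, SE 0.11, edgeR adjusted p = 0.72). Zfp661, a zinc finger gene on the other side, differed by -0.23 (SE 0.18, adjusted p = 0.54), and Mrps5, of the mitochondrial ribosome, by -0.17 (SE 0.10, adjusted p = 0.42). Gpat2 had the largest difference of the 4 (-1.40, SE 0.55, adjusted p = 0.18), on 4 to 12 reads in the libraries labelled Hdc-/- and 5 to 25 in WT. It was the only one of the 4 with an unadjusted p under 0.05.

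Around Tmem87a only Vps39 passed, and in the opposite direction. Vps39, of the complex that tethers late endosomes to lysosomes, averaged 109 ± 3.99 CPM under the Hdc-/- label, against 140 ± 9.87 CPM in WT (SD, n = 4). It fell by 0.37 on the log2 scale (SE 0.07, adjusted p = 0.0036 by edgeR), a call lost in 2 of 14 alternative settings (adjusted p = 0.12 and 0.060, over the 6 numbered libraries with and without a replicate block). Ehd4, an endocytic ATPase gene that also borders Jmjd7, differed by 0.01 (SE 0.08, adjusted p = 0.95). On the far side of Jmjd7, Mapkbp1 (0.19, SE 0.13, adjusted p = 0.49) and the transcription factor gene Mga (0.05, SE 0.06, adjusted p = 0.72) did not pass.

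The stretch around Slc28a2, Gatm and Sqrdl held most of the called neighbours, in both directions. Sord, which encodes sorbitol dehydrogenase and lies before Slc28a2, averaged 95.5 ± 7.01 CPM under the Hdc-/- label, against 142 ± 9.79 CPM in WT (SD, n = 4). It fell by 0.57 (SE 0.07, adjusted p = 0.00012 by edgeR). Just after Gatm, Spata5l1 had 37, 33, 49 and 39 reads in the libraries labelled Hdc-/-, against 60, 104, 105 and 96 in WT, and fell by 1.31 (SE 0.26, adjusted p = 0.0061), a call lost with the replicate block (adjusted p = 0.053). The next gene, AA467197, went the other way, with 75, 90, 100 and 95 reads in the libraries labelled Hdc-/-, against 36, 13, 34 and 28 in WT (log2 fold change 1.61, SE 0.30, adjusted p = 0.0036). The zinc transporter gene Slc30a4 rose by 0.50 (SE 0.11, adjusted p = 0.010), a call lost in the same 2 settings as that of Vps39 (adjusted p = 0.084 and 0.11). Pldn (now Bloc1s6), between Slc30a4 and Sqrdl, did not pass (0.20, SE 0.10, adjusted p = 0.29). On the other side of Sqrdl, Slc24a5 differed by 0.16 (SE 0.13, adjusted p = 0.56), and Sema6d had at most 25 reads in any library.

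Around Slc27a2 and Hdc the other neighbours did not pass. Gabpb1, which encodes a subunit of a GA-binding transcription factor, averaged 195 ± 12.8 CPM under the Hdc-/- label, against 181 ± 13.4 CPM in WT (0.10, SE 0.07, adjusted p = 0.47 by edgeR). Dtwd1 averaged 37.5 ± 0.390 CPM under the Hdc-/- label, against 37.4 ± 3.02 CPM in WT (0.00, SE 0.09, adjusted p = 0.99). Atp8b4, a phospholipid flippase gene, differed by -0.38 (SE 0.11, adjusted p = 0.058) and passed under 6 of 14 alternative settings, with adjusted p from 0.012 to 0.19.

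**Figure D4:**
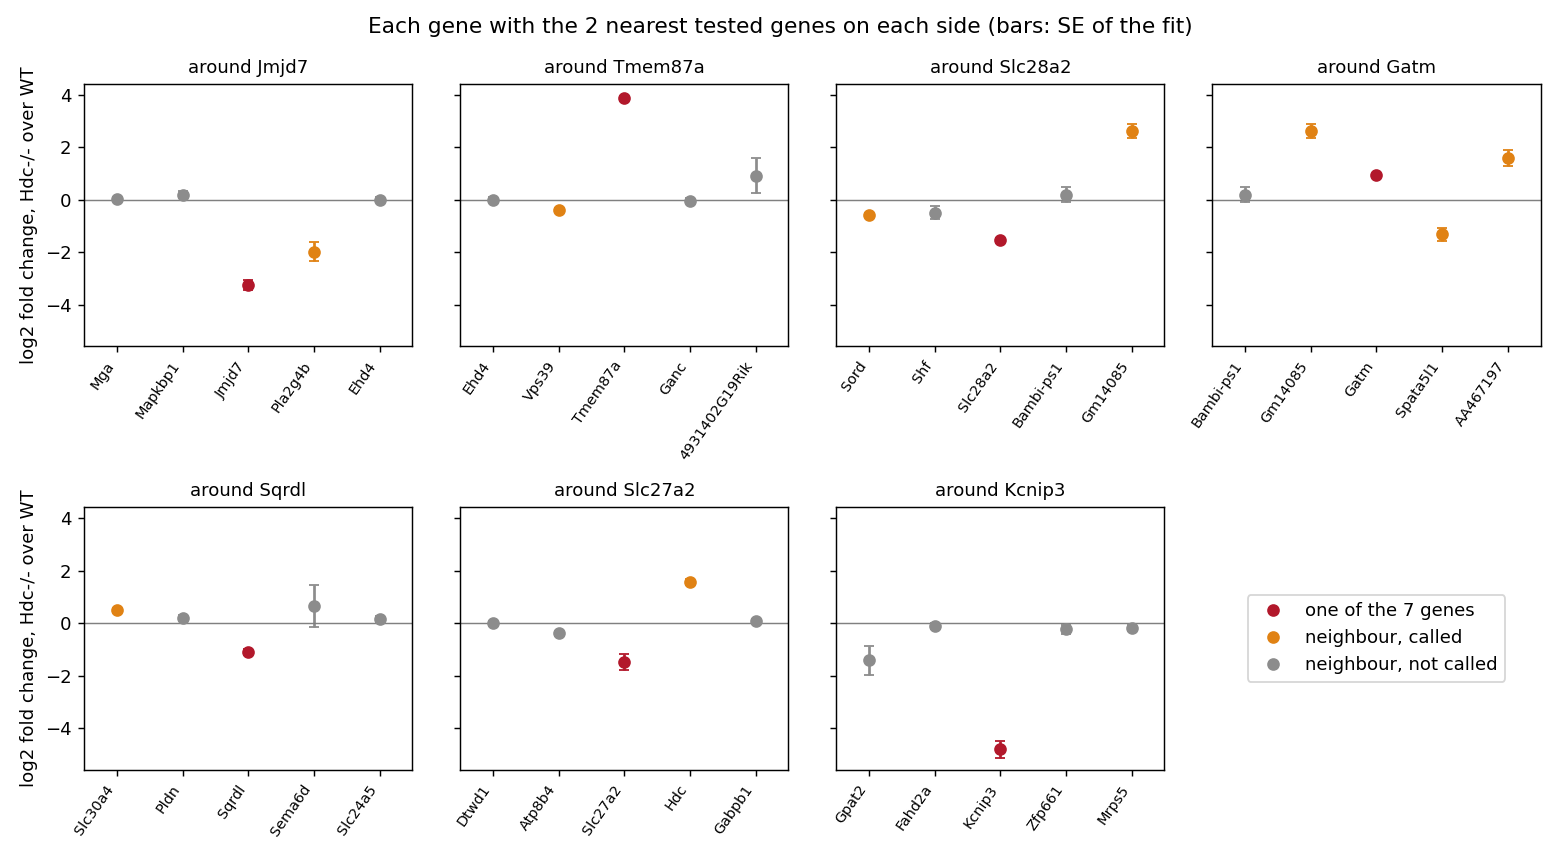
Log2 fold change with its SE (y axis, libraries labelled Hdc-/- over WT) of each of the 7 genes (red) and of the 2 nearest tested genes on each side along chromosome 2 (orange if called, grey if not). None of the 4 neighbours of Kcnip3 is called, whereas Slc28a2 and Gatm have called neighbours in both directions.

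Most tested relatives and pathway partners of the 7 genes did not pass the test, which also holds for all genes tested. Of 50 tested genes on 7 lists, 2 rose and 2 fell (8% called, against 4.76% of all genes), and the median log2 fold change was 0.00. One of the 4 is Pla2g4b, the neighbour of Jmjd7 described above. Tmem87b, also listed, lies 27 places after Hdc. Cd36, which takes up fatty acids, rose by 2.21 (SE 0.26, adjusted p = 3.4e-05 by edgeR). It had 112, 105, 126 and 132 reads in the libraries labelled Hdc-/-, against 20, 17, 33 and 26 in WT, without overlap. It is also made by maturing red cells and macrophages, whose marker sums are given above.

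For the creatine pathway, none of 3 tested partners of Gatm passed in edgeR, DESeq2 or limma-voom (1 at an unadjusted p under 0.05). Gamt, which completes creatine synthesis, averaged 2.09 ± 0.158 CPM under the Hdc-/- label, against 1.73 ± 0.358 CPM in WT (0.27, SE 0.31). Ckb, the brain-type creatine kinase, averaged 5.87 ± 0.932 CPM under the Hdc-/- label, against 3.61 ± 1.24 CPM in WT (0.70, SE 0.25, adjusted p = 0.13). The creatine importer Slc6a8 had at most 21 reads in any library and was not tested.

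For sulfide oxidation, 1 of 4 tested partners of Sqrdl passed, a short list, against 4.76% of all genes tested. Ethe1, the persulfide dioxygenase that acts after it, averaged 47.9 ± 3.62 CPM under the Hdc-/- label, against 59.5 ± 3.49 CPM in WT (SD, n = 4). It fell by 0.31 (SE 0.09, adjusted p = 0.045 by edgeR), a call lost in 11 of 14 alternative settings (adjusted p from 0.0096 to 0.32). Tst, a sulfurtransferase, differed by -0.40 (SE 0.15, adjusted p = 0.15), and Suox, sulfite oxidase, by -0.01 (SE 0.13).

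For fatty acids, 2 of 16 tested partners of Slc27a2 rose, against 2.05% of all genes tested. These were Cd36 and the peroxisomal transporter gene Abcd2. Abcd2 averaged 23.1 ± 2.71 CPM under the Hdc-/- label, against 16.9 ± 1.62 CPM in WT (0.44, SE 0.12, adjusted p = 0.049 by edgeR), a call lost in 12 of 14 alternative settings (adjusted p from 0.014 to 0.19). Among the family of Slc27a2 itself, Slc27a1 (0.04, SE 0.10), Slc27a4 (-0.05, SE 0.12) and Slc27a6 (0.09, SE 0.17) did not pass.

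For nucleoside transport, none of 4 tested partners of Slc28a2 passed in edgeR, DESeq2 or limma-voom, and none had an unadjusted p under 0.05. The equilibrative transporter gene Slc29a1 averaged 112 ± 6.12 CPM under the Hdc-/- label, against 122 ± 5.03 CPM in WT (-0.13, SE 0.07, adjusted p = 0.33). The other sodium-coupled family members were close to silent, with at most 3 reads for Slc28a1 and 0 for Slc28a3 in any library.

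Of 13 tested genes on the list of relatives and substrates of Jmjd7, only its chromosome neighbour Pla2g4b passed, against 4.76% of all genes tested. The DRG GTPase genes Drg1 (-0.12, SE 0.06, adjusted p = 0.37 by edgeR) and Drg2 (-0.09, SE 0.08, adjusted p = 0.60), whose products Jmjd7 modifies, did not. For Tmem87a, none of 5 tested relatives passed in edgeR, DESeq2 or limma-voom (2 at an unadjusted p under 0.05). Its closest relative Tmem87b averaged 39.5 ± 2.30 CPM under the Hdc-/- label, against 34.3 ± 2.32 CPM in WT (0.20, SE 0.09, adjusted p = 0.25). Wls, which carries Wnt proteins to the surface, differed by 0.02 (SE 0.06).

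None of 5 tested relatives and partners of Kcnip3 passed in edgeR, DESeq2 or limma-voom (1 at an unadjusted p under 0.05). The potassium channel gene Kcnd3 had 0, 17, 20 and 2 reads in the libraries labelled Hdc-/-, against 24, 9, 65 and 19 in WT. The groups overlapped, and this was the gene with the unadjusted p under 0.05 (-1.66, SE 0.75, edgeR adjusted p = 0.25). Psen2 differed by 0.01 (SE 0.13, edgeR adjusted p = 0.99). Kcnip4 averaged 1.29 ± 0.557 CPM under the Hdc-/- label, against 0.933 ± 0.504 CPM in WT (0.47, SE 0.47, adjusted p = 0.64). Kcnip1 and Kcnip2 had at most 2 and 3 reads in any library. Pdyn, the prodynorphin gene that the Kcnip3 product is known to repress, had 0 reads in every library.

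The 250-base windows before the RefSeq starts are not all free of exons. GENCODE M21 exons fill all 250 bases for Tmem87a and Slc27a2, 221 for Jmjd7 and 26 for Gatm. In these windows the CCAAT box occurred for 4 of the 7 genes (Slc28a2, Gatm, Sqrdl and Kcnip3), against 33.8% of all promoters. A match at any of its 3 starts counted for Kcnip3, whereas the share is per promoter. AGATAA occurred for Slc28a2 and, at another start, for Kcnip3. The core of the interferon-stimulated response element was in the window of Sqrdl and in 2.98% of all promoters. TATAAA was in that of Jmjd7 and in 12.4% of all promoters, and CACGTG was in none of the windows of the 7 genes and in 6.02% of all promoters. Both strands were searched, and a match is a string of letters, not a shown binding site. CpG pairs numbered 19 for Slc27a2, 17 for Gatm, 13 each for Tmem87a and Jmjd7 and 0 for Slc28a2 and Sqrdl, against a median of 6 over all promoters. The 3 starts of Kcnip3 had 4, 2 and 23.

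The genes most alike in pattern over the 8 libraries came mostly from other chromosomes, where most tested genes lie. Likeness was Pearson's r of log2 CPM, which here follows the split between groups, so it is a description only. Tmem87a was most like Fech, the last enzyme of heme synthesis (r = 0.998), Jmjd7 like Rtp4 (0.992), Slc28a2 like Tgtp2 (0.996) and Sqrdl like H2-K1 (0.993). Fech is among the red cell markers above, and Rtp4, Tgtp2 and H2-K1 are known as interferon-inducible. Gatm was most like Lrrn4 (0.992), which lies 80 places after Hdc, Slc27a2 like the histone gene Hist1h3d (0.986), and Kcnip3 like Tars2 (0.993). Between 16 and 98 tested genes reached an r over 0.95 with each of the 7. A high r does not mean a difference of like size. Log2 fold changes were 1.10 for Fech, -1.02 for Rtp4, -0.67 for Tgtp2 and -0.28 for H2-K1. They were 1.29 for Lrrn4, -0.89 for Hist1h3d and -0.15 for Tars2. Shared regulation was not tested.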

How the data were processed

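The authors deposited raw read counts per gene symbol for 8 libraries, 4 labelled Hdc-/- and 4 WT. The build was mm9 and the tools were HTSeq 0.6.1, TopHat2 2.0.4, Bowtie2 and bcl2fastq 1.8.4, as the submitters' processing notes list them. Annotation, strandedness and overlap mode of the counting: not given in the sources used here. Per the labels' protocols, RNA was amplified (SMARTer) and tagmented (Nextera XT), without molecular identifiers, so counting error understates the uncertainty. Of the 23284 entries, 2 labelled only with a number were left out (at most 0.0320% of a library). Columns were matched to sample titles by name; a column whose number did not match was used in its group as the unnumbered library.

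The main test was that of edgeR 4.0.16 in R 4.3.3: filterByExpr (minimum count 10, minimum total 15), TMM, robust quasi-likelihood fit, two-sided, no covariate, Benjamini-Hochberg over 13005 genes, threshold 0.05. The SE is the fold change over the square root of F. Alternatives were RLE factors, DESeq2 1.42.0, limma 3.58.1 (voom), no filter, leaving out each library and a replicate block. The fit was tested on simulated data. Summed pairs were refitted with the same scaling. Gene order and upstream windows came from RefSeq GRCm38.p6, and transcripts and exons from GENCODE M21, aligned with Biopython 1.88; as the build differs from mm9, coordinates belong only to printed sequences. RefSeq matched 12903 tested genes (99.2%). Named genes are the 7 members, Hdc, the 2 nearest tested genes on each side, partner genes that pass or have the highest levels, and the most alike gene; further partners and Epb4.2, Spint1 and Slc20a1 were added after their values were seen. The members and lists were chosen with earlier results of these data known. Values of 2 partner genes are not reported here.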

Additional observations from a re-analysis of the deposited data

Results flagged for a closer look

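Sqrdl in the unnumbered library labelled Hdc-/- lay apart from the rest of its group, at 13.7 CPM against 16.1 to 16.4 CPM in libraries 1, 2 and 3. The gap was 0.903 of the group's range, above Dixon's 95% critical value for 4 samples. It was the only such value among 64 checked, 1 per gene and group for the 7 genes and their neighbours, and chance gives about 1 in 20. All 4 libraries stayed below the WT libraries.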

How the results depend on the processing

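Over 14 alternatives all 98 recomputed fold changes of the 7 genes kept their direction and moved by less than 1 SD between libraries. The widest range was that of Kcnip3, -5.13 to -4.47, and the narrowest that of Slc28a2, -1.59 to -1.51. The count of higher genes over all genes was 448 in DESeq2, against 267. Leaving out 1 library gave 137 to 382 higher and 242 to 433 lower genes, with 175, 137, 154 and 170 higher without libraries 2, 3 and the unnumbered one labelled Hdc-/- and without WT 2. Partner genes called were 1 to 2 higher and 1 to 2 lower when leaving out 1 library, 1 higher in limma-voom, and 1 in each direction without a filter. Leaving out any 1 library left 1 fatty acid gene higher and 0 sulfide genes lower; leaving out 1 gave 0 to 1 fatty acid genes lower and 0 to 1 creatine genes higher, each 1 without WT 1. In limma-voom 1 fatty acid gene was higher, and without a filter 1, with 0 sulfide genes lower. The cause was not tested.

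No pairing of the samples by replicate number was seen. Deviations of same-numbered libraries correlated at -0.06, -0.02 and -0.02, and none of the 3 was most like its own number. So few pairs cannot exclude a pairing. With a replicate block over the 6 numbered libraries 123 genes were higher and 189 lower, against 134 and 211 in the same libraries with no replicate block. In both fits 1 partner gene was higher (1 of the fatty acid list) and 1 lower, with 0 of the sulfide list. The calls of Vps39 (adjusted p = 0.12), Slc30a4 (0.084) and Spata5l1 (0.053) by edgeR were lost under the block; the first 2 were also lost without it (0.060 and 0.11). No other setting ended the call of a neighbour. Fewer libraries enter these fits. Kcnip3 and Slc27a2 rest on 2 to 10 and 25 to 66 reads per library labelled Hdc-/-, which limits the precision of their folds.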
